A study of Mus musculus with 16 samples.

Results

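The genes described here, 5 that hepatocytes express for export into the blood, were followed across all 16 arrays of the series: Serpina1b, F2, Fetub, Hgfac and Ttr. Their symbols in the annotation of the platform led to 6 probes of the 20794 on the array, 1 for each gene and 2 for Ttr, among 9026 named genes. The mice were 4 males heterozygous for HdhQ111 (HdhQ111/+), a knock-in allele with an expanded CAG repeat in the huntingtin gene, on C57BL/6J and 18 weeks old. The reference was RNA pooled from 4 wildtype C57BL/6J males of that age, a separate pool for liver and for brain from the same wildtype mice. Each mutant mouse gave liver and brain RNA, and each RNA was hybridised on 2 two-channel cDNA arrays with the dyes exchanged, so that there were 8 arrays per tissue. The pool is 1 control sample, and the spread among wildtype mice is not in any test below.

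All values are log2 ratios of HdhQ111 RNA over the wildtype pool, so that a value below 0 means less RNA in the mutant mouse. That direction is likely, from the channel order in the labels, but no header states it, and base 2 is assumed. A mouse value is the mean of its dye-exchanged arrays. Over all probes, ratios of size 16 or more left out, these arrays correlated negatively (Pearson's r -0.26 to -0.24 in liver, -0.19 to -0.086 in brain). Arrays of different mice in the same orientation correlated at 0.16 to 0.30 (Cy5) and 0.24 to 0.39 (Cy3) in liver. In brain they did so at 0.083 to 0.23 and 0.11 to 0.25. The arrays held 19530 to 20584 values each, with array medians from -0.13 to 0.25, and their number limits the precision. The ratios carry no expression level, so whether a gene was above background, and whether the tissue's defining markers were present, was not examined. In bulk tissue, fewer cells of a type and less RNA per cell cannot be told apart.

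The platform's names are taken to stand 11 rows before the values they belong to, and every name here uses that offset. Over 4693 pairs of probes of the same gene, members left out, the mean correlation across the 16 arrays was 0.050 at offset 11. It was 0.0088 at offset 0 and at most 0.022 at any other of the 121 offsets tried. No source states the offset. The Ttr probes, 2216 rows apart, differed in liver by a root mean square of 0.048 over the 4 mouse values at offset 11 and by 0.94 at offset 0. In brain they differed by 0.40 at offset 11 and by 0.86 at offset 0. With the names at offset 0, the liver means below would be -0.024 for Serpina1b, -0.12 for F2, -0.12 for Fetub, and -0.019 and -0.61 for the Ttr probes. Hgfac had no tested value at that offset.

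Hepatocytes carry plasma proteins through the endoplasmic reticulum and the Golgi apparatus and release them into the blood. The transcription of their genes depends on liver-enriched factors, among them HNF1 alpha, HNF4 alpha, FOXA proteins and C/EBP alpha. Serpina1b encodes an alpha-1 antitrypsin, an inhibitor of neutrophil elastase. F2 encodes prothrombin, the precursor of thrombin. Fetub encodes fetuin-B, an inhibitor of the zinc protease ovastacin. Hgfac encodes the activator that cleaves hepatocyte growth factor into its active form. Ttr encodes transthyretin, which carries thyroxine and, with retinol binding protein, retinol. In the brain, transthyretin is made mainly by the choroid plexus, and it is the member with a well-known site of synthesis there.

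The bases just before the annotated start are shown for 4 of the 5 genes, because binding sites of liver factors in this stretch are the feature that such genes are best known to share. They are the 150 bases before the start in RefSeq, build GRCm38.p6, read 5′ to 3′ on the strand of the gene, and capitals mark GTTAAT, the core of an HNF1 site. The Serpina1b stretch is chr12:103738190-103738339 and the F2 stretch chr2:91636458-91636607, both on the minus strand. The stretch of Fetub, before the first of its starts, is chr16:22918232-22918381 and that of Hgfac chr5:35041359-35041508, both on the plus strand. Ttr is not shown.
Serpina1b: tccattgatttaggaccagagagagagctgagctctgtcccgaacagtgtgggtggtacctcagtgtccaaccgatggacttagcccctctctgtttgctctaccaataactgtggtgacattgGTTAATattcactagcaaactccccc
F2: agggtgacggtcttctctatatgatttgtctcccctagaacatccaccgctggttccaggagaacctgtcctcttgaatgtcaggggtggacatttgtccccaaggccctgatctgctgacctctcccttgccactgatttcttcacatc
Fetub: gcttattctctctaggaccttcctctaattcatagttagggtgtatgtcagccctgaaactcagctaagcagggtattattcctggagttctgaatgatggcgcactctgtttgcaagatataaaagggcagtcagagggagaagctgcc
Hgfac: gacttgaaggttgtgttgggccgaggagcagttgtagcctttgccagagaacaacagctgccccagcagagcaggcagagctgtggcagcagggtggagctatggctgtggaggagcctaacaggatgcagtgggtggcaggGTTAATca

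Over 250 bases before the start and on both strands, GTTAAT was found for Serpina1b at -26 to -21 and for Hgfac at -8 to -3. It stood in 2 of the 5 member promoters (Fetub has 2 annotated starts) and in 6.43% of 32851 promoters of the same length. CAAAGT, the core of an HNF4 site, stood in 2 of the 5 and in 12.6% of all. TGTTTNC, the core of a FOXA site, stood in 3 of the 5 and in 17.8% of all, at -58 to -52 for Serpina1b and -42 to -36 for the first start of Fetub. TTGCNNAA, a C/EBP core, stood in 1 of the 5, Serpina1b, and in 9.56% of all. None of the 4 motifs overlapped another in these windows, and none of the 4 was found in the F2 window. A match describes the letters only.

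**Figure D1:**
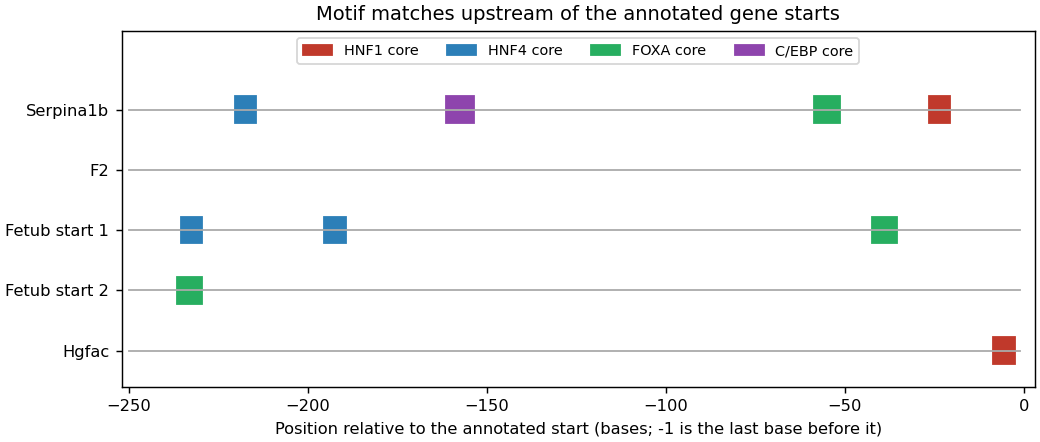
Positions of 4 motif cores in the 250 bases before the annotated starts of Serpina1b, F2, Fetub (2 starts) and Hgfac; the horizontal axis is the distance from the start in bases and each coloured block is a match on either strand. Serpina1b holds 1 match of each motif, and F2 holds none.

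In liver, all 6 probes had a mean below 0, between -0.29 and -0.16, and no probe passed the test. Expressed as RNA relative to the pool, the means were 81.5% for Serpina1b, 82.4% for F2, 84.3% for Fetub, 84.7% for Hgfac, and 87.0% and 89.4% for the Ttr probes. Of the 24 mouse values, 23 were below 0, and 5 of the 6 probes were below 0 in all 4 mice. Over the 20127 liver probes tested, 53.6% had a mean below 0 and 12.7% were below 0 in every measured mouse. With limma and Benjamini-Hochberg adjustment over those probes, 0 members had an adjusted p under 0.05, and 0% of all probes did. At an unadjusted p under 0.05 in the lower direction, 2 of the 6 members were counted, against 4.12% of all probes. The members, and the gene lists below, were chosen with earlier results of these data known. Shares set beside those of all probes or genes are therefore a description and not a test.

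The sign of the liver ratios depended on the dye. On arrays with the mutant RNA in Cy3, all 24 member values were below 0, and on those with it in Cy5, 18 of 24 were above 0. All 4 Cy3 arrays were below 0 for 6 of the 6 probes, against 19.4% of all liver probes, and all 4 Cy5 arrays were above 0 for 2 of the 6, against 12.9%. For 4 of the 6 probes the orientations had means of opposite sign. No member was below 0 on all 8 liver arrays, as 0.536% of the probes were.

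No header states whether the ratios of the arrays with mutant RNA in Cy3 were already turned to mutant over pool, and the liver direction rests on it. With the sign of those arrays turned, a setting chosen after seeing the data, 0 of the 6 liver probes were below 0. Of all 8828 named genes tested in liver with their probes averaged, 3910 were then below 0. The means were then 0.44 for Serpina1b, 0.13 for F2, 0.39 for Fetub, 0.34 for Hgfac, and 0.46 and 0.16 for the Ttr probes. Limma's adjusted p was between 0.1499 and 0.5905 for them, so that no member passed either way. Over 15314 other probes, the difference of the dye-exchanged arrays correlated between liver and brain (Spearman's rho 0.42), and their mean did not (rho -0.029). These are correlations across probes that share arrays and mice, given as a description. The mean was used as the genotype ratio throughout, and the choice stays a likely one, not a stated one. The plot of single arrays shows the deposited values mouse by mouse.

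**Figure D2:**
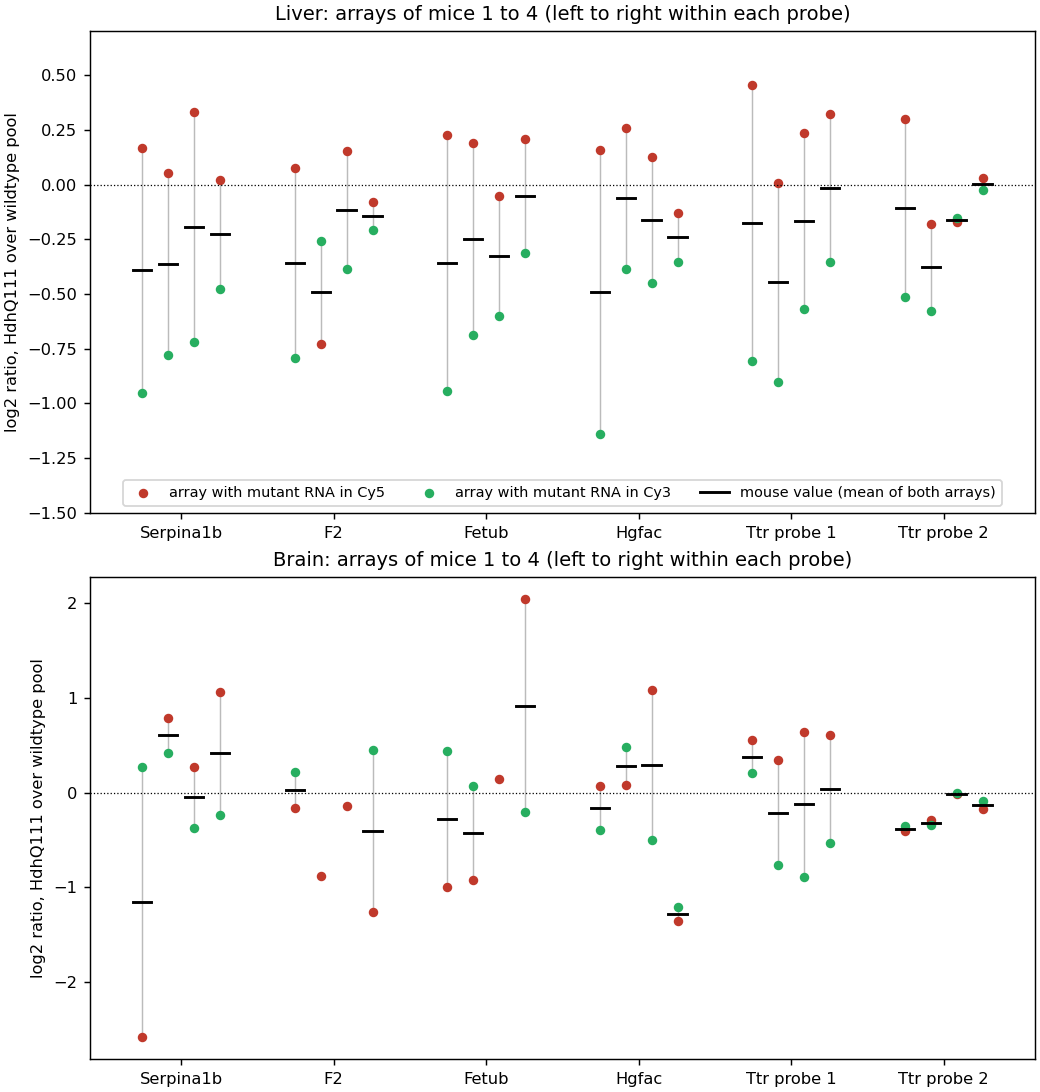
Log2 ratios (vertical axis) of the 6 probes on every array in liver (top) and brain (bottom), with mice 1 to 4 from left to right; red points are arrays with mutant RNA in Cy5, green points those in Cy3, and black bars the mouse values. In liver all 24 green points lie below 0 and 18 of 24 red points above it; in brain the second Ttr probe lies below 0 on all 8 arrays. The panels have different vertical scales.

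Serpina1b, the protease inhibitor, had the lowest liver mean of the 6 probes. With mutant RNA in Cy5 the values were 0.17, 0.051, 0.33 and 0.022 for mice 1 to 4, and with it in Cy3 they were -0.95, -0.78, -0.72 and -0.48. The orientations did not overlap. The mouse values were -0.39, -0.36, -0.20 and -0.23, with a mean of -0.29 ± 0.10 (SD, n = 4 mice). All 4 lay below 0. Limma's adjusted p over all liver probes was 0.636, and Serpina1b was 1 of the 2 members counted at an unadjusted p under 0.05. Mice carry several near-identical Serpina1 genes side by side on chromosome 12, and a cDNA probe may bind RNA of more than 1 of them, so the value may be shared.

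F2, the prothrombin gene, was the member with the least regular dye pattern in liver. The Cy5 arrays gave 0.074, -0.73, 0.15 and -0.082, and the Cy3 arrays -0.79, -0.26, -0.39 and -0.21. In mouse 2 the Cy5 array was the lower one, and in the other mice the Cy3 array was. The mouse values were -0.36, -0.49, -0.12 and -0.15, with a mean of -0.28 ± 0.18. Mice 1 and 2 were lower than mice 3 and 4, and all 4 lay below 0. Limma's adjusted p was 0.636, and F2 was the other member counted at an unadjusted p under 0.05. The mean kept its sign within each orientation, at -0.15 (Cy5) and -0.41 (Cy3).

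Fetub, the fetuin-B gene, followed the dye pattern of Serpina1b. The Cy5 arrays gave 0.23, 0.19, -0.054 and 0.21 for mice 1 to 4, and the Cy3 arrays -0.94, -0.69, -0.60 and -0.31. Every Cy3 array lay below every Cy5 array. The mouse values were -0.36, -0.25, -0.33 and -0.051, with a mean of -0.25 ± 0.14. Mouse 4 was closest to 0, and limma's adjusted p was 0.636.

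Hgfac, the growth factor activator, had its most negative array in mouse 1. The Cy5 arrays gave 0.16, 0.26, 0.13 and -0.13, and the Cy3 arrays -1.14, -0.38, -0.45 and -0.35. The orientations again did not overlap. The mouse values were -0.49, -0.063, -0.16 and -0.24, with a mean of -0.24 ± 0.18. Without mouse 1 the mean was -0.16, so that this mouse moved it by more than 1.5 times. Limma's adjusted p over the 4 mice was 0.636. The gene lies on chromosome 5, as does the huntingtin gene that carries the knock-in allele. Sequence inherited with that allele cannot be told apart from the allele here, and was not tested.

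Ttr, the transthyretin gene, was measured by 2 probes that gave close values in liver. The mouse values of the first probe were -0.17, -0.45, -0.17 and -0.016, and those of the second -0.11, -0.38, -0.16 and 0.0020. Mouse 2 was lowest and mouse 4 nearest to 0 on both. Among 18285 other probes with 4 liver values, 25 (0.137%) lay closer to the first probe than the second did. The means were -0.20 ± 0.18 and -0.16 ± 0.16 (n = 4 mice each), with a limma adjusted p of 0.636 for both. Without mouse 2 the means were -0.12 and -0.090.

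The Ttr probes differed in their dye response. For the first, the Cy5 arrays of liver gave 0.46, 0.0080, 0.24 and 0.32 and the Cy3 arrays -0.81, -0.90, -0.57 and -0.35. For the second, they gave 0.30, -0.18, -0.17 and 0.028 (Cy5) and -0.52, -0.58, -0.15 and -0.024 (Cy3). The Cy5 array thus exceeded the Cy3 array in every mouse on the first probe but not on the second, where mouse 3 had nearly equal values.

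The difference between orientations, the Cy5 array minus the Cy3 array, measures the dye and not the genotype if the deposited ratios are all mutant over pool. Averaged over mice, it was 0.87 for Serpina1b, 0.78 for Fetub, 0.69 for Hgfac and 0.91 for the first Ttr probe in liver. These exceeded 94.8%, 93.0%, 90.3% and 95.4% of all 20127 liver probes, whose median was 0.061 and whose interquartile range ran from -0.44 to 0.41. F2, at 0.27, and the second Ttr probe, at 0.31, lay inside that range. The Cy5 array was above the Cy3 array in all 4 mice for 4 of the 6 probes, against 20.2% of all liver probes. The part of this dye difference in the mean ratios was not tested.

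**Figure D3:**
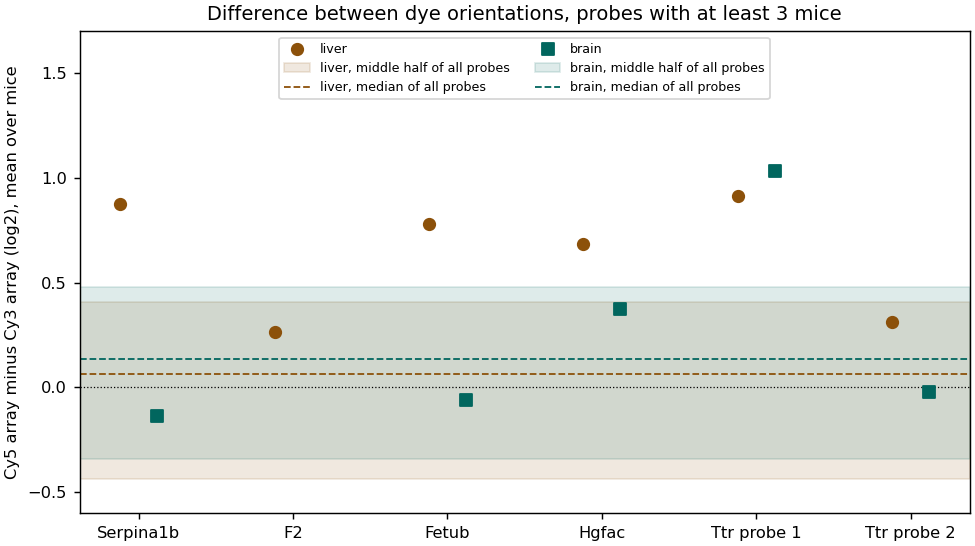
Cy5 array minus Cy3 array (log2, vertical axis), averaged over mice, for each probe in liver (circles) and brain (squares), with the interquartile range (bands) and the median (dashed lines) of all probes; F2 has under 3 pairs in brain and is left out there. Serpina1b, Fetub, Hgfac and the first Ttr probe lie above the liver band, while in brain the first Ttr probe lies above the band at 1.03.

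The mice differed in how far their members lay below 0. The median of the 6 liver probes was -0.36 in mouse 1, -0.37 in mouse 2, -0.16 in mouse 3 and -0.099 in mouse 4. The median of all liver probes was -0.056, -0.020, -0.012 and -0.0035 in the same order. The scatter of the arrays differed too: the interquartile range of the Cy5 and Cy3 arrays was 0.87 and 1.28 in mouse 1, 0.50 and 0.73 in mouse 2, 0.47 and 0.59 in mouse 3, and 0.43 and 0.38 in mouse 4. The part of this scatter in the members' values was not tested.

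In brain the members had no common direction. Of the 6 probes, 5 had the 3 mice a test needed, 3 of these had a mean below 0, against 44.8% of 19325 brain probes, and 0 passed, as in 0% of all probes. At an unadjusted p under 0.05 with limma, 0 members were counted, against 3.5% of all probes. Below 0 in every measured mouse was 1 member probe, the second of Ttr, against 5.7% of all probes. Of 21 mouse values, 13 were below 0. On the Cy3 arrays, 13 of 21 values were below 0, and on the Cy5 arrays 12 of 24.

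For the 4 genes best known from liver, brain ratios scattered widely. Serpina1b had mouse values of -1.15, 0.61, -0.051 and 0.41, with a mean of -0.046 ± 0.79. Its Cy5 array of mouse 1 was at -2.58 and the Cy3 array of the same mouse at 0.28, so that 1 array set the lowest value. Hgfac had mouse values of -0.17, 0.29, 0.29 and -1.28, with a mean of -0.22 ± 0.74. In mouse 4 both orientations were far below 0, at -1.35 and -1.20. Fetub had -0.28, -0.42 and 0.92 in mice 1, 2 and 4, with a mean of 0.073 ± 0.74 (n = 3). F2 had values in mice 1 and 4 only, 0.027 and -0.40, and was not tested. The SD over mice of Serpina1b was thus 0.79 in brain and 0.098 in liver, and that of Hgfac 0.74 and 0.18.

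Ttr in brain gave different pictures on its probes. On the first, the Cy5 arrays were at 0.55, 0.34, 0.64 and 0.61 and the Cy3 arrays at 0.21, -0.77, -0.89 and -0.53. The mouse values of 0.38, -0.21, -0.12 and 0.041 lay on both sides of 0, with a mean of 0.021 ± 0.26 and an adjusted p of 0.998. On the second, the Cy5 arrays were at -0.41, -0.29, -0.018 and -0.18 and the Cy3 arrays at -0.36, -0.35, -0.0040 and -0.091. All 8 lay below 0, as for 0.157% of the 16607 brain probes with 8 values, and the orientations were close to each other in every mouse. The mouse values were -0.38, -0.32, -0.011 and -0.13, with a mean of -0.21 ± 0.17 and a limma adjusted p of 0.998. Mouse 3 was near 0. This probe was singled out after its values were seen.

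The probes of Ttr disagreed in brain by a root mean square of 0.40 over the 4 mice. Of 16606 other probes, 43.0% lay closer to the first probe than the second did. On the first probe the Cy5 minus Cy3 difference was 1.03, above 93.3% of brain probes, and on the second it was -0.023, above 39.1%. The value of Ttr in brain thus depended on the probe, and no direction was set for it.

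Genes of the choroid plexus and ependyma, the cells that line the ventricles and make cerebrospinal fluid, lay on both sides of 0 in brain. Of 36 listed genes 17 were tested, Ttr among them, with 11 below 0 and 6 above, against 43.1% of all genes below 0. Their median was -0.071 (the median of all 8621 named genes tested was 0.024). On the Cy5 arrays alone 8 of the 17 were below 0, on the Cy3 arrays 8, and with the sign of the Cy3 arrays turned 9. Below 0 in every mouse was 1 gene, Ttr with its probes averaged, against 4.65% of all genes. Its value of -0.0020 in mouse 1 averaged 0.38 on the first probe and -0.38 on the second. The first Ttr probe alone was below 0 in 2 of 4 mice. With limma 0 passed, and 1 had an unadjusted p under 0.05 in the higher direction, against 1.55% of all genes. It was the cation channel gene Trpv4, at 1.07 ± 0.46 (n = 3), or 0.21 with the sign of the Cy3 arrays turned. The remaining 15 genes ranged within -0.20 to 0.38.

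The tissues were compared through the liver mean minus the brain mean, fitted over the 8 mouse values. The difference was -0.25 for Serpina1b (SE 0.35), -0.32 for Fetub (SE 0.33), -0.023 for Hgfac (SE 0.34), and -0.22 (SE 0.18) and 0.049 (SE 0.15) for the Ttr probes. The difference of the first Ttr probe was larger than its standard error, and the others were smaller. Of these 5 probes 0 passed limma's test, where 0.00525% of 19055 probes did, with adjusted p from 0.775 to 0.987. At an unadjusted p under 0.05 there were 0 of 5, against 6.47% of all probes. Of the 5, 4 were below 0, against 55.1%. The Serpina1b difference rested on single mice, at -0.59 without mouse 1 and -0.0087 without mouse 2, and that of the first Ttr probe was -0.11 without mouse 1. No difference between liver and brain was detectable for these genes with 4 mice.

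Beyond the members, liver ratios of the coagulation and fibrinolysis genes, in which prothrombin acts, had a sign that followed the dye. Of 27 listed genes 18 were tested with their probes averaged, F2 included, with 15 below 0 and 3 above and a median of -0.15 on the deposited sign. On the Cy5 arrays alone 5 of the 18 were below 0 and on the Cy3 arrays all 18, and with the sign of the Cy3 arrays turned 17 of 18 were above 0, all but F7. The median of all 8828 named genes tested was -0.031, with 56.8% below 0. With the sign turned, 4918 of the 8828 were above 0 and 3910 below, with a median of 0.042. Below 0 in all 4 mice were 9 of the 18, against 14.1% of all genes. With limma 0 passed (0% of all genes), and 5 had an unadjusted p under 0.05 in the lower direction in this fit per gene, against 4.96%. They were F2, F7, F10, Klkb1 and Serpind1. F7, which with tissue factor starts coagulation, was at -0.30 ± 0.12 (n = 4), and was below 0 in both orientations (-0.40 with Cy5 and -0.20 with Cy3). F10, which cleaves prothrombin, was at -0.22 ± 0.11, with 0.070 on the Cy5 arrays and -0.51 on the Cy3 arrays. Klkb1, plasma prekallikrein, was at -0.26 ± 0.17, with 0.021 and -0.54. Serpinc1, the antithrombin gene, was at -0.14 ± 0.07, with 0.13 and -0.40. These 3 genes thus had opposite signs in the orientations, as most members did.

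Of the liver serpins, Serpina1b included, 11 of 11 tested were below 0 on the deposited sign, against 56.8% of all genes. They ranged from -0.32 to -0.068 with a median of -0.20. Below 0 in every mouse were 8, against 14.1%. On the Cy5 arrays alone 3 of the 11 were below 0, with a median of 0.10. With the sign of the Cy3 arrays turned 10 of 11 were above 0, all but Serping1, where 4918 of 8828 named genes were. Of the neighbouring Serpina1 genes, Serpina1d was at -0.22 ± 0.08 and Serpina1e at -0.20 ± 0.11, both below 0 in 4 of 4 mice. Serpina1e was above 0 on the Cy5 arrays alone, at 0.043, and Serpina1d was below 0 on both, at -0.11 and -0.32. The probes of these paralogs may share RNA and were not independent. Serpina6, the corticosteroid carrier, was at -0.32 ± 0.21, with -0.13 on the Cy5 and -0.52 on the Cy3 arrays. Serpind1, heparin cofactor II, was at -0.26 ± 0.18, with 0.15 and -0.67. With limma 0 passed and 4 had an unadjusted p under 0.05 in the lower direction, against 4.96% of all genes: Serpina1b, Serpina1d, Serpina6 and Serpind1.

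The lists of the other members' partners, each with its member counted in, had medians closer to 0. Their counts stand against 56.8% of all genes below 0. On the Cy5 arrays alone that share was 49.5%, and with the sign of the Cy3 arrays turned 3910 of 8828 genes were below 0. In the fetuin and cystatin group 4 of 5 tested genes were below 0, with a median of -0.13, 2 of 5 on the Cy5 arrays alone and 1 of 5 with the sign of the Cy3 arrays turned. In the list on hepatocyte growth factor activation 6 of 8 genes were below 0, with a median of -0.10. On the Cy5 arrays alone 1 of 8 was, and with the sign turned 0 of 8. Klkb1, whose product can activate the growth factor, and Hgfac were the lowest of them. The list also holds Spint2, a protease inhibitor gene, and Mst1r, a receptor gene for another factor. Hgf and Met had no named probe, so neither the growth factor nor its receptor was measured. The retinol and thyroid hormone list holds Dio2, Dio3, Thrb and Thrsp beside transport genes. Of its genes 6 of 8 were below 0, with a median of -0.089, and Thrsp was the lowest at -0.54. On the Cy5 arrays alone 5 of 8 were, and with the sign turned 3 of 8. Rbp4, retinol binding protein and the partner of transthyretin in plasma, was at -0.31 ± 0.41, with mouse values of -0.28, -0.85, -0.25 and 0.13. Like both Ttr probes, it was lowest in mouse 2 and highest in mouse 4. Alb, the albumin gene, was at -0.0050 ± 0.068 and lay closer to 0 than any member.

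Across these groups, other hepatocyte secreted genes and acute phase genes, 85 genes other than the members were tested in liver. They had a median of -0.16, and 69 were below 0, 26 of them in every mouse, against 14.1% of all genes. Without mouse 1 the median was -0.093. With limma 0 passed, and at an unadjusted p under 0.05 there were 12 in the lower direction and 0 in the higher, against 4.96% and 2.64% of all genes. On the Cy5 arrays alone 32 of the 85 were below 0, with a median of 0.061, where 49.5% of all genes were. On the Cy3 arrays 78 were below 0, with a median of -0.38, where 56.4% of all genes were. For all named genes these medians were 0.0018 and -0.065. With the sign of the Cy3 arrays turned, 10 of the 85 were below 0, where 3910 of 8828 named genes were. The dye split of the members was thus found in the larger group as well, whose lists were also chosen with earlier results known. In brain, 77 of these genes were tested and 43 were below 0, against 43.1% of all genes. The brain median was -0.026, against 0.024 for all named genes. On the Cy5 arrays alone 39 of the 77 were below 0, and on the Cy3 arrays 42, where 3194 and 5126 of 8621 named genes were. With the sign of the Cy3 arrays turned, 37 of the 77 and 3108 of the 8621 were below 0 in brain.

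**Figure D4:**
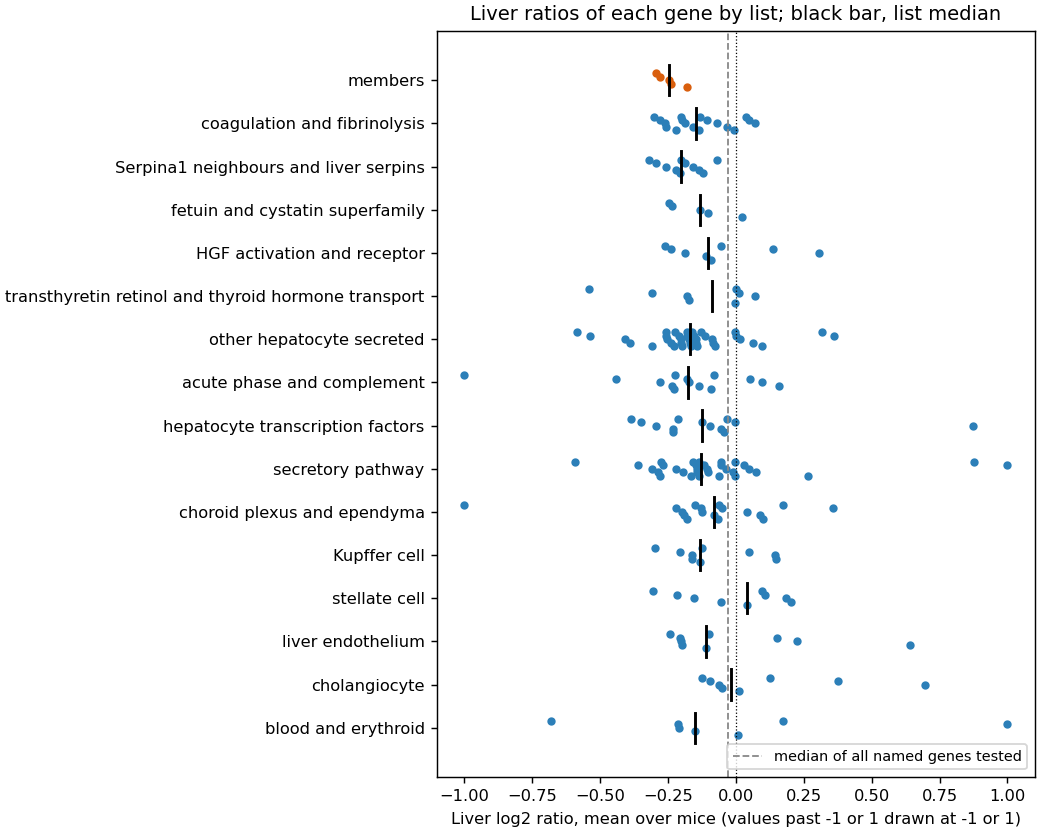
Liver log2 ratio of each gene (points, mean over mice, probes averaged) for 16 gene lists, with the list median (black bars) and the median of all named genes tested (dashed line at -0.031); the members are in orange. The members lie between -0.29 and -0.18, and the stellate cell list is the one with a median above 0.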

How the data were processed

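Liver and brain RNA of 4 HdhQ111/+ mice was compared with a wildtype pool on 16 cDNA arrays. The authors deposited 1 table of normalized log2 ratios per probe and array, made from RNA that was reverse transcribed and labelled indirectly, per the labels' protocols. How the arrays were scanned and normalized is not given in the sources used here. Arrays of a mouse and tissue were averaged into 1 replicate. Probes with at least 3 mice were tested against 0 in each tissue with limma 3.58.1 (lmFit and eBayes, R 4.3.3, two-sided), with Benjamini-Hochberg adjustment over all probes and a threshold of 0.05, and liver was compared with brain over the 8 mouse values. The procedure was tested on simulated data. The simulated shifts were far larger than the members' means, so finding effects of the members' size was not examined.

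The members and gene lists were chosen with earlier results of these data known. Named from each list were at most 4 genes per tissue with the smallest unadjusted p under 0.05, and partners of the members (Hgf, Met, Ahsg, Plg, Serpina1a and Serpina1c had no named probe and were not analysed here). Liver and brain came from the same mice, so the mouse pairs them; the correlation of a mouse's liver and brain deviations was between -0.013 and 0.084. Alternatives covered centring, dye orientation, the sign of the Cy3 arrays, large ratios, probe averaging, the minimum number of mice, the spread model, array weights, the row offset, each mouse left out and the mouse block.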

Additional observations from a re-analysis of the deposited data

How the results depend on the processing

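No member passed limma's adjusted threshold under any setting, with adjusted p from 0.1499 to 0.986 in liver, 0.152 to 0.99992 in brain and 0.432 to 0.998 for liver minus brain. With the sign of the Cy3 arrays turned, chosen after seeing the data, liver members below 0 went from 6 to 0 of 6, list genes from 69 to 10 of 85, and liver minus brain from 4 to 1 of 5. Liver means then were Serpina1b 0.44, F2 0.13, Fetub 0.39, Hgfac 0.34, Ttr 0.46 and 0.16, brain means Fetub -0.030 and Hgfac 0.19, and differences Serpina1b 0.51, Fetub 0.42 and Hgfac 0.16. Over all probes 65 passed in liver, 1 in brain and 8 for the difference, against 0, 0 and 1. Which sign holds is not stated in the sources.

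On Cy5 arrays only, 2 of 6 liver members, 32 of 85 list genes and 1 of 6 differences were below 0. Liver means were Serpina1b 0.14, Fetub 0.14, Hgfac 0.10 and the first Ttr probe 0.26, and differences Serpina1b 0.26, Fetub 0.074 and Hgfac 0.13. On Cy3 arrays only, brain Serpina1b was 0.022, brain Ttr probe 1 -0.49 and the difference of Ttr probe 2 -0.12. Array weights gave brain Serpina1b 0.17, brain Ttr probe 1 -0.0056 and a Hgfac difference of 0.21; centring gave a Hgfac difference of 0.0056. With names at offset 0, liver means were Serpina1b -0.024, F2 -0.12, Fetub -0.12 and Ttr -0.019 and -0.61, brain Serpina1b was 0.15 and Fetub -0.10, and 60 of 81 liver list genes were below 0, with a median of -0.073.

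With each mouse left out, liver members below 0 stayed at 6 of 6, brain members were 2 to 3, differences 2 to 3 (2 of 4 without mouse 2) and list genes 61 to 75 in liver and 32 to 39 in brain, with a liver median of -0.093 without mouse 1. Brain Serpina1b ranged from -0.26 to 0.32, Hgfac from -0.39 to 0.14 and Ttr probe 1 from -0.098 to 0.099. Differences ranged from -0.59 (without mouse 1) to -0.0087 (without mouse 2) for Serpina1b, from -0.28 to -0.11 for Ttr probe 1, from -0.38 to 0.12 for Hgfac and from -0.026 to 0.12 for Ttr probe 2. With the mouse as a replicate block 4 of 5 differences were below 0, and no call changed. The cause was not tested. Signal over background could not be examined.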

Other observations

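Genes of the secretory route itself, which the text above has not described, also had a liver sign that followed the dye. Of 32 secretory pathway genes tested 26 were below 0 on the deposited sign, against 56.8% of all genes, with a median of -0.13, and with limma 0 passed. On the Cy5 arrays alone 14 of the 32 were below 0, against 49.5% of all genes. With the sign of the Cy3 arrays turned 9 were, against 3910 of 8828 named genes. At an unadjusted p under 0.05 there were 6 in the lower direction, against 4.96% of all genes. The 4 with the smallest p were Sec23b, a coat protein of vesicles that leave the endoplasmic reticulum, at -0.59 ± 0.51 (n = 4), Srp19, a subunit of the signal recognition particle, at -0.36 ± 0.27, Hsp90b1, a chaperone there, at -0.28 ± 0.18, and Lman1, a cargo receptor for coagulation factors, at -0.27 ± 0.16. These 4 were below 0 in both orientations. Of 13 hepatocyte transcription factor genes 12 were below 0, with a median of -0.12, and 3 of the 13 were with the sign of the Cy3 arrays turned and 5 on the Cy5 arrays alone. With an unadjusted p under 0.05 were Nr2f2 at -0.39 ± 0.12, Creb3l3 at -0.35 ± 0.14 and Ppara at -0.23 ± 0.14. Other secreted genes with the smallest p were Igfbp4 at -0.39 ± 0.23, Apoh at -0.41 ± 0.36, Apoe at -0.23 ± 0.11 and Agt at -0.24 ± 0.15, and among acute phase genes Mbl2 at -0.28 ± 0.15. On the Cy5 arrays alone Igfbp4, Apoe and Agt were above 0, at 0.0070, 0.12 and 0.11. In brain the same rule gave Kng1 at -0.47 ± 0.27, Pon1 at 0.62 ± 0.53, Fgl1 at 0.87 ± 0.68 (n = 3) and Lbp at -0.37 ± 0.20. These were 2 lower and 2 higher of 77 genes, where 135 and 134 of all 8621 named genes were. Lbp was at -0.80 on the Cy5 and 0.066 on the Cy3 arrays, while Kng1, Pon1 and Fgl1 kept their sign in both orientations. With the sign of the Cy3 arrays turned, Kng1 was at -0.11, Pon1 at 0.28, Fgl1 at -0.73 and Lbp at -0.43.

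Markers of other liver cells gave medians of -0.13 for 9 Kupffer cell genes, 0.039 for 9 stellate cell genes, -0.11 for 9 endothelial genes, -0.019 for 8 cholangiocyte genes and -0.15 for 7 blood genes. With the sign of the Cy3 arrays turned the medians were 0.049, 0.30, 0.14, 0.090 and -0.15 in that order. On the deposited sign 6, 4, 6, 4 and 4 genes were below 0 in that order, against 56.8% of all genes. Above 0 were 3, 5, 3, 4 and 3. Below an unadjusted p of 0.05 with limma in liver were Des at -0.31 ± 0.093, Kdr at -0.24 ± 0.13, Cldn4 at 0.70 ± 0.35 (n = 3) and S100a8 at 1.03 ± 0.98. S100a8 was at -1.02 on the Cy5 and 3.08 on the Cy3 arrays. Each was the 1 gene of its list at that p. Of all genes 4.96% were at that p in the lower direction and 2.64% in the higher. In brain they were C1qa at 0.32 ± 0.16 and Col3a1 at -0.59 ± 0.12 (n = 3). Their brain lists had medians of 0.063 (Kupffer cell) and -0.073 (stellate cell), with 5 of 9 and 2 of 8 genes above 0. Of 8621 named genes in brain 135 were at that p in the lower direction and 134 in the higher. On the Cy5 and the Cy3 arrays Col3a1 was at 0.82 and -1.37 in brain, and C1qa at 0.32 and 0.33. In liver Cldn4 was at 1.465 and -0.22, Des at -0.0070 and -0.60, and Kdr at -0.090 and -0.39. The part of these markers in the members' values was not tested. The genes nearest to a member over the 4 liver mouse values, among 8296, were Cyb5a for Serpina1b (root mean square difference 0.031), Abhd16a for F2 (0.030), Agt, the angiotensinogen gene, for Fetub (0.032), Nfkbiz for Hgfac (0.035) and Tpgs2 for Ttr (0.016).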
